A study of Mus musculus with 10 samples.

Results

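A set of 56 genes out of 56691 in the deposited matrix was concentrated in 1 of 10 RNA-seq libraries of the mouse medial habenula, the library of the mouse called withdrawal 2. A gene belonged to the set when its level in withdrawal 2 was at least 1 FPKM (fragments per kilobase of gene and per unit of library total) and at least 3 times its highest level in any of the other 9 libraries. The level and ratio were met by 59 genes, 0.168% of the 35072 with a count in any library, and 3 of them were left out because their symbols start with prefixes the rule excludes. The members were therefore chosen by their FPKM in withdrawal 2 against the other 9 libraries, and their height in that library is given as a description with no test. They fell into a blood group of 8 genes (globins, the heme enzyme gene Alas2 and neutrophil genes). A further group was of forebrain GABAergic transcription factors (4 Dlx genes, Sp8 and Sp9). Others were receptors, including Glp1r and Npffr1, and a remainder of mixed or unknown role, much of it resting on very few reads.

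The study compared wild-type mice in nicotine withdrawal with saline controls, with 1 library per mouse. The 6 withdrawal mice were given nicotine ditartrate at 4 mg/kg intraperitoneally, 2 injections a day, for 14 days, then saline from day 15, and tissue was taken on day 17. The 4 control mice were given intraperitoneal saline for 17 days. Strain, sex, age and batch are not stated in these sources, and p-values measure the spread between these mice. On the material the labels disagree: each sample's source entry has FACS-isolated cholinergic neurons, while the series text has collected tissue and mentions no sorting.

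The marker transcripts did not match a sorted cholinergic population. Chat, the enzyme that makes acetylcholine, was at 0.04 FPKM in withdrawal 2 and 0.03 in control 2, against 5.70 to 8.80 in the other 8 libraries. Mbp of myelin was at 710 FPKM in withdrawal 2 and 297 to 561 elsewhere. Ttr of the choroid plexus was at 9861 FPKM in withdrawal 2, 18.8 in control 2 and 33.9 to 7888 in the other 8 libraries. In Chat, withdrawal 2 and control 2 thus both stood apart from the other 8 libraries before any member is considered, whereas in Ttr they lay at opposite ends. The name "withdrawal 2" below means the library so labelled. Of 13 medial habenula markers, 9 were under 1 FPKM in withdrawal 2 and 3 had their lowest value there (6.91% of all genes with a count, and 11.6% of those with a mean of at least 10 counts, were lowest in it). Their summed FPKM was 138 there, 12.1 in control 2 and 528 to 803 in the other 8. Calb2, which is also a thalamic marker, gave 125 of the 138 FPKM, and the other 12 markers summed to 12.7 in withdrawal 2, 8.63 in control 2 and 313 to 489 in the other 8. Library totals ran from 15023448 to 22026333 counts, and withdrawal 2 had 20276566.

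The medial habenula is a small epithalamic nucleus of excitatory neurons, many of which release acetylcholine, and it lies against the third ventricle and its choroid plexus. GABAergic neurons of the forebrain are specified by Dlx homeodomain factors, which act with Sp8 and Sp9, and keep the enzymes Gad1 and Gad2 and the vesicular transporter Slc32a1. Globin transcripts in brain RNA come mainly from red cells held in vessels, and young red cells still carry Alas2, the first enzyme of heme synthesis, while S100a8, S100a9 and Ngp are made by neutrophils and their precursors. In bulk tissue, more cells of a type and more RNA per cell cannot be told apart.

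The 150 bases before the annotated start of 8 members are shown so that the letters before the starts of the globin and heme genes and of the GABAergic factor genes can be set side by side. That all members are high in withdrawal 2 is fixed by the rule. They are from RefSeq on GRCm38.p6, which is another build than the mm39 of the deposited counts, so the coordinates belong to that annotation only. Of the 56 members, 31 had an entry in that promoter table. Capitals mark the motif CCAAT, the motif CACCC or the motif TATAA on either strand, and no match overlapped another.
Hbb-bs (chr7:103827929-103828078, minus strand): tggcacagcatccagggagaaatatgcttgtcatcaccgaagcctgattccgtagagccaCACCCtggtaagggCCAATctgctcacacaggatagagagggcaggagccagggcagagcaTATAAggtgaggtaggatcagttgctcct
Hbb-bt (chr7:103813924-103814073, minus strand): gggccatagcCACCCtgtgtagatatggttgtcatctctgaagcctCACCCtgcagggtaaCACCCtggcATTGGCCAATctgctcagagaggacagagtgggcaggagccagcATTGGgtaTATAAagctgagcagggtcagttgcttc
Hba-a1 (chr11:32283522-32283671, plus strand): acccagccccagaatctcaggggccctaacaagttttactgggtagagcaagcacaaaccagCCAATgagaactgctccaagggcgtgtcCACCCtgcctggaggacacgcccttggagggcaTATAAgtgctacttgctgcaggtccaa
Hba-a2 (chr11:32296342-32296491, plus strand): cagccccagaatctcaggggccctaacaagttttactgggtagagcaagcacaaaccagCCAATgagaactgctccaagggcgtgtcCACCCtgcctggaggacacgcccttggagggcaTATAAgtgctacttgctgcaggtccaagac
Alas2 (chrX:150547267-150547416, plus strand): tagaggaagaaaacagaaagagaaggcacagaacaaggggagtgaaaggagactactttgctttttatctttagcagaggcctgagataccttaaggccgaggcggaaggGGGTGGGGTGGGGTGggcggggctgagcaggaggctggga
Dlx1 (chr2:71529295-71529444, plus strand): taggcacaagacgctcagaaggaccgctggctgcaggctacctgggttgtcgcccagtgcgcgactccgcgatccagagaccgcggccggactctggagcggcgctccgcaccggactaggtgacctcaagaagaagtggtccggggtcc
Dlx2 (chr2:71546755-71546904, minus strand): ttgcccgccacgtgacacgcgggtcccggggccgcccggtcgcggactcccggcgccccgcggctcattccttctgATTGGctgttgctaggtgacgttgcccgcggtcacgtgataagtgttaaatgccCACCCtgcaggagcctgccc
Sp9 (chr2:73271776-73271925, plus strand): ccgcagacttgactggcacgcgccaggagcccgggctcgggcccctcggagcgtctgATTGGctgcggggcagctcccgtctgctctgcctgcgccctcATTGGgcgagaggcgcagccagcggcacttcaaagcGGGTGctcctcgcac

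All 4 globin stretches held each of the 3 motifs. In Hbb-bs, the beta-s globin gene, CACCC began 90 bases before the start, CCAAT 76 bases before it and TATAA 29 bases before it. Hba-a1 and Hba-a2, the paired alpha globin genes, shared a run of 147 identical bases in these stretches before the start. Their transcript sequences were not compared, so how reads were assigned between these genes is not known. Alas2 held CACCC 3 times on the reverse strand and neither of the other motifs. The GABAergic factor stretches held no TATAA, and Dlx1 held none of the 3 motifs. The same 150 bases before the start were searched on either strand in 32851 RefSeq entries. Of these, 24.5% held the motif CCAAT, 37.4% held the motif CACCC and 14.2% held the motif TATAA. These matches are descriptions of letters in a window.

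The globin genes Hbb-bs and Hba-a1 had the highest FPKM of all members, followed by C130074G19Rik at 46.3. Hbb-bs was at 447 FPKM in withdrawal 2, against 32.1, 17.6, 34.2 and 56.2 in controls 1 to 4 and 45.9, 36.8, 98.5, 80.2 and 131 in withdrawal 1, 3, 4, 5 and 6. Hba-a1 was at 269 FPKM in withdrawal 2, against 19.0, 11.1, 22.04 and 34.3 in the controls and 22.9, 21.2, 63.3, 42.2 and 76.4 in the other withdrawal libraries, in the same order. For both, withdrawal 6 came second and control 2 was lowest. Hbb-bt, the beta-t globin gene, was at 34.7 FPKM in withdrawal 2, 1.29 to 4.94 in controls and 3.02 to 8.40 in the other withdrawal libraries. Hba-a2 reached 29.3 FPKM against 1.5 to 3.5 in controls and 1.55 to 6.40 in the other withdrawal libraries. Alas2 reached 10.9 FPKM, with 0.53, 0.40, 0.73 and 0.59 in the controls and 0.90, 1.05, 2.44, 1.43 and 3.55 in withdrawal 1, 3, 4, 5 and 6. All 5 of the other withdrawal libraries were above all 4 controls for Alas2, as they were for 10.4% of the 18190 genes tested without withdrawal 2. The groups overlapped for each globin gene.

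Blood content can be read as globin counts. The 4 globin genes together took 606 CPM (counts relative to the library total) in withdrawal 2 (12290 counts, 95% Wilson interval 595 to 617), the highest of the 10 libraries. Controls 1 to 4 had 44.1, 24.4, 47.6 and 76.8 CPM, and withdrawal 1, 3, 4, 5 and 6 had 58.8, 48.6, 136, 104 and 173. The interval covers counting error only. The ratio of Hbb-bs to Hba-a1 FPKM was 1.66 in withdrawal 2 and 1.55 to 2.01 in the other 9, so the main beta and alpha globin transcripts kept a similar proportion while their levels differed between libraries.

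The other red cell markers were higher in withdrawal 2 by smaller margins. All 9 measured genes of the red cell list were highest there, and 5 were members. Slc4a1, the red cell anion exchanger, was at 0.21 FPKM on 21 counts against at most 0.10 elsewhere. Bpgm and Fech, which other cells also use, were at 22.1 and 5.37 FPKM against at most 19.6 and 5.04. As a background, 12.7% of the 35072 genes with a count, and 14.9% of the 18246 with a mean of at least 10 counts, were highest in withdrawal 2. Since the rule used that contrast, nothing is read from the comparison.

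The 3 neutrophil genes among the members rested on small counts. S100a9, a calcium-binding alarmin, was at 5.39 FPKM on 57 counts against 0.09 to 0.80 in the other 9 libraries. Its partner S100a8 was at 2.27 FPKM on 32 counts against 0 to 0.64. Ngp, neutrophilic granule protein, was at 1.82 FPKM on 45 counts against 0 to 0.11, or 16.5 times the next library. Of the 10 genes in the neutrophil and monocyte list, 9 were highest in withdrawal 2, but 7 were under 1 FPKM there, and the granule genes Camp and Ltf were at 0.33 and 0.31. The summed list was at 12.1 FPKM in withdrawal 2 and 0.41 to 2.05 elsewhere. Cxcl5, a chemokine that attracts neutrophils, was a member at 10.9 FPKM against 0.24 to 2.10.

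Other blood cells did not stand out in the same way. The platelet list summed to 3.17 FPKM in withdrawal 2 against 0.82 to 3.04 elsewhere, and the lymphocyte list to 9.91 against 5.01 to 10.2. Interferon-response genes, a list with no member, summed to 77.4 FPKM in withdrawal 2 and 19.6 to 60.3 elsewhere, and 10 of 12 were highest in withdrawal 2. Choroid plexus markers summed to 10260 FPKM in withdrawal 2, beside a red cell sum of 819. In controls 1, 3 and 4 they summed to 5646 to 8190 beside red cell sums of 78.9 to 120, and in withdrawal 6, second in red cell sum, to 7931 beside 248. In withdrawal 1, 4 and 5 they summed to 1722 to 3611 beside 99.3 to 202. The choroid plexus and red cell sums were 53.6 and 84.6 in withdrawal 3 and 24.6 and 51.0 in control 2. Whether vascular blood, choroid plexus or other material carried the globin transcripts was not tested.

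**Figure D1:**
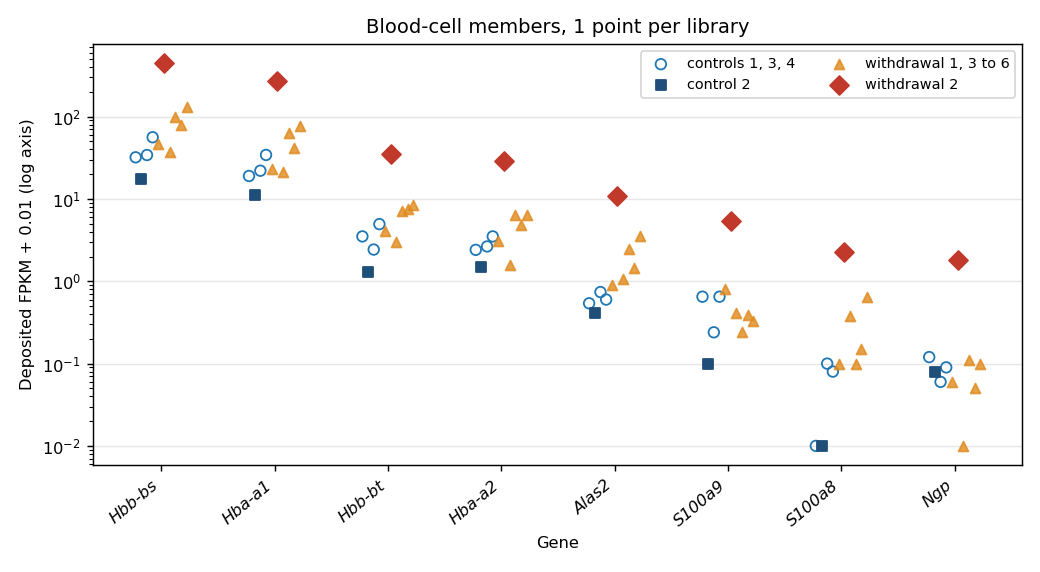
Deposited FPKM plus 0.01 (log axis) of the 8 blood members in each library, with control 2, the other controls, withdrawal 2 and the other withdrawal libraries marked separately. Withdrawal 2 is the highest point for every gene, from 447 FPKM for Hbb-bs to 1.82 for Ngp.

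The transcription factor members were low or absent in several habenula libraries and highest in withdrawal 2. Dlx1 was at 12.2 FPKM in withdrawal 2, against 1.16, 2.52, 3.26 and 1.98 in controls 1 to 4 and 1.33, 0, 1.35, 0.38 and 0.32 in withdrawal 1, 3, 4, 5 and 6. Dlx2, its neighbour on chromosome 2, was at 5.53 FPKM, with 0.51, 1.30, 1.44 and 1.03 in the controls and 0.55, 0, 0.37, 0.16 and 0.10 in the other withdrawal libraries. Dlx6 was at 7.68 FPKM, with 0.34, 0.73, 1.53 and 1.84 in the controls and 0.88, 0.09, 0.75, 0.21 and 0.14 in the others. For Dlx1 and Dlx2 controls 2, 3 and 4 were the highest of the remaining libraries, and for all 3 genes withdrawal 3, 5 and 6 were the lowest. Dlx5 was at 4.58 FPKM and, of the 6 GABAergic factors, came closest to the limit of the rule, with 1.48 in control 2.

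Sp8, a zinc finger factor of interneuron precursors, had the largest ratio among GABAergic members. It was at 5.98 FPKM on 553 counts in withdrawal 2, 7.77 times the next library, with 0.51, 0.44, 0.77 and 0.68 in the controls and 0.62, 0.02, 0.36, 0.26 and 0.04 in the other withdrawal libraries. Sp9, its relative, was at 4.28 FPKM against 0.68 to 1.04 in controls and 0.45 to 1.07 in the other withdrawal libraries. For Sp8 the controls were within a narrow range and withdrawal 3 and 6 were near 0.

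Most of the GABAergic list was also highest in withdrawal 2. Of its 14 genes 13 were highest in withdrawal 2, beside 14.9% of all genes with a mean of at least 10 counts. Of these 13, 6 were members, which the rule itself made highest. The 14th was Lhx6, a factor of medial ganglionic eminence interneurons, at 0.67 FPKM against 2.75 in control 2. Lists without a member shared this trait: 8 of 9 choroid plexus, 7 of 8 oligodendrocyte and 6 of 8 microglia genes were highest in withdrawal 2. Gad1 was at 66.5 FPKM against 4.51 to 43.9, Gad2 at 68.2 against 7.52 to 35.2, and Slc32a1 at 34.2 against 1.37 to 14.0. Control 2 was the next highest library for each of these 3, and none of them met the ratio of 3. The GABAergic list summed to 224 FPKM in withdrawal 2, 110 in control 2, 67.6 in control 3 and 16.9 to 44.9 in the other 7.

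**Figure D2:**
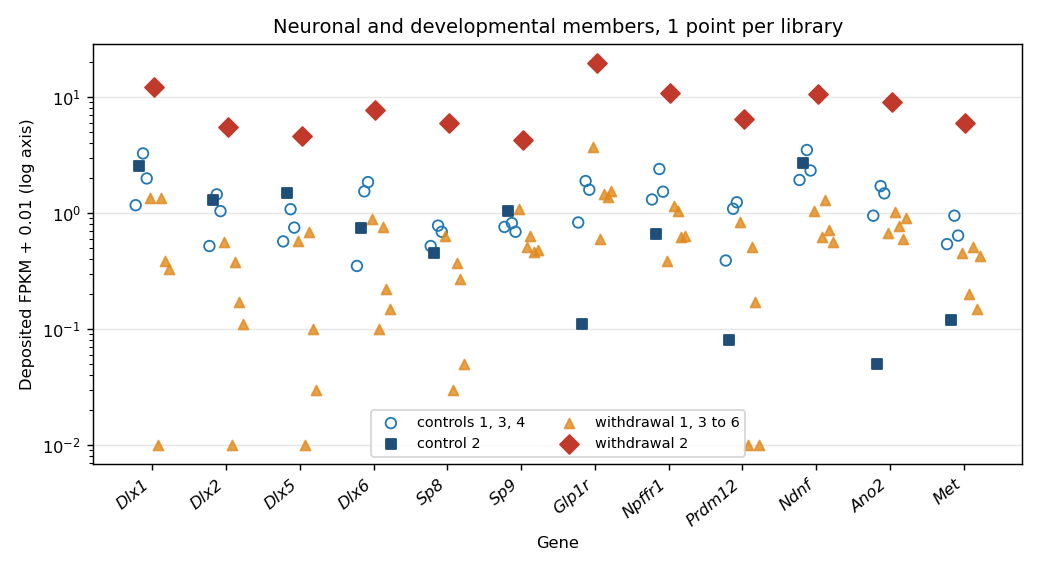
Deposited FPKM plus 0.01 (log axis) of 12 neuronal and developmental members in each library, with withdrawal 2, control 2, the other controls and the other withdrawal libraries marked separately. Withdrawal 2 is the highest point for every gene, 12.2 FPKM for Dlx1 and 5.98 for Sp8, and several of the other withdrawal libraries lie near 0.

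The next highest library differed between the receptor members. Glp1r, the receptor for the peptide GLP-1, was at 19.7 FPKM, with 0.82, 0.10, 1.88 and 1.58 in controls 1 to 4 and 3.74, 0.59, 1.44, 1.38 and 1.55 in withdrawal 1, 3, 4, 5 and 6. Npffr1, a receptor for neuropeptide FF, was at 10.9 FPKM, with 1.30, 0.65, 2.39 and 1.52 in the controls and 0.38, 1.15, 1.04, 0.61 and 0.62 in the others. Glp1r was lowest in control 2 and Npffr1 in withdrawal 1. Of 42 neuropeptide receptor genes, 9 were highest in withdrawal 2 and 2 were members; Avpr1a at 1.99 FPKM, a vasopressin receptor, lay just outside at a ratio of 2.55.

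Further members with known products were spread over calcium handling, adhesion and signalling. Atp2b4, a plasma membrane calcium pump, was at 32.4 FPKM against 1.55 in control 2 and 5.31 to 9.70 in the others. Ano2, a calcium-gated chloride channel, was at 9.11 against 0.04 to 1.70, and Met, the receptor for hepatocyte growth factor, at 5.93 against 0.11 to 0.94. Prdm12, a zinc finger factor of sensory and hypothalamic neurons, was at 6.47 FPKM and listed at 0 in withdrawal 3 and 6. Ndnf, a secreted factor found in some cortical interneurons, was at 10.6 FPKM, with 1.92, 2.72, 3.49 and 2.32 in controls and 1.04, 0.61, 1.28, 0.71 and 0.55 in the other withdrawal libraries. For Ndnf all of these withdrawal libraries were below all controls, as for 6.23% of the 18190 genes tested without withdrawal 2. Hs3st2, a heparan sulfate sulfotransferase, was at 8.98 FPKM, Arhgap25 and Arhgap6, GTPase activators, at 3.23 and 2.66, Slc12a8, a solute carrier, at 2.25, and Sox1ot, a transcript overlapping Sox1, at 19.3. Vax1, a homeobox factor of the ventral forebrain, at 6.76 FPKM, and Igfbpl1, at 9.07, were named after their values were seen.

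The remaining libraries were not equally far from withdrawal 2. Of the 25 members outside blood with at least 100 counts in withdrawal 2, the next highest library was control 3 for 11, withdrawal 1 for 5, control 4 for 4, withdrawal 4 for 3 and control 2 for 2. Control 2 was the lowest library for 11 and withdrawal 3 for 9, ties counted. Control 2 and withdrawal 2 share low habenula markers. The rule itself put every member at least 3 times higher in withdrawal 2 than in control 2, so their likeness cannot be judged on these members. Control 2 had the highest hippocampal sum, 567 FPKM, and withdrawal 2 was at 185.

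**Figure D3:**
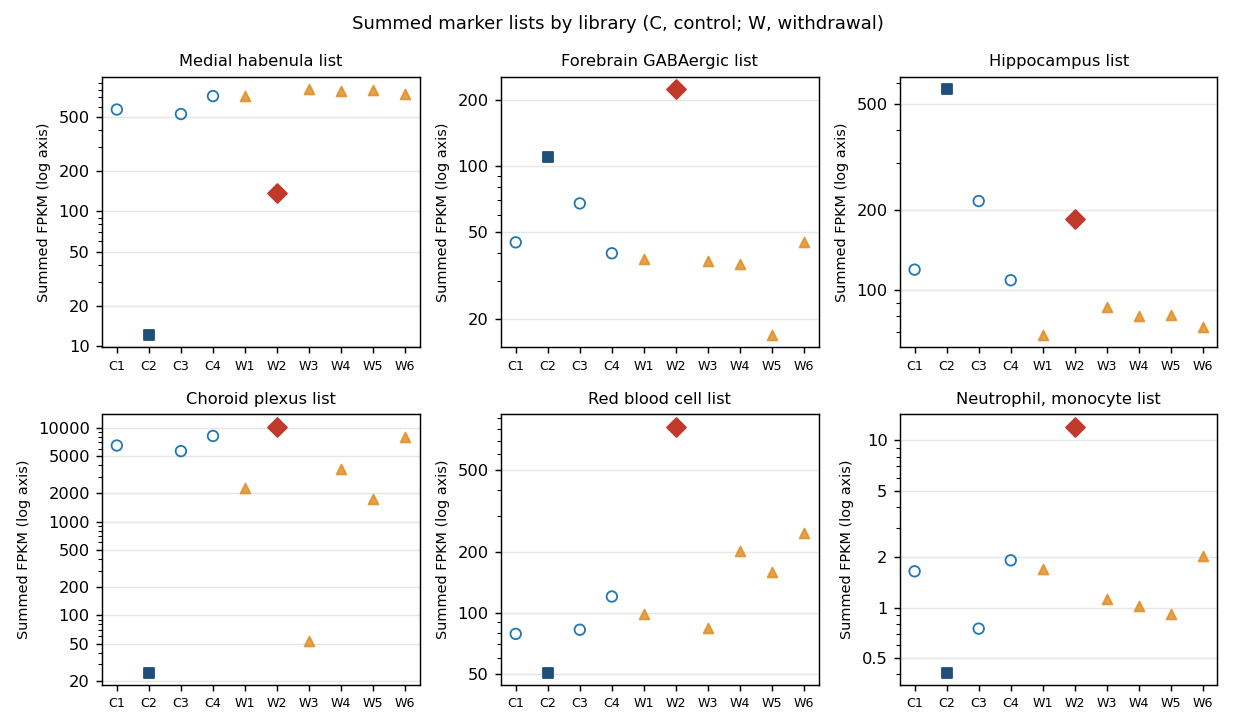
Summed FPKM (log axis) of 6 marker lists in each library (C, control; W, withdrawal). Withdrawal 2 is highest for the GABAergic, choroid plexus, red cell and neutrophil lists and at 138 FPKM for the habenula list, where control 2 is at 12.1 (12.7 and 8.63 without Calb2).

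The region lists held both high and low markers in withdrawal 2. Of 16 striatal list genes, 5 were highest in withdrawal 2, among them the dopamine receptor Drd2 at 6.08 FPKM against at most 3.98. The receptor Drd1 was at 1.84 FPKM and below withdrawal 3 and 6, and Adora2a, also highest in withdrawal 2, was at 0.84. Ppp1r1b, an abundant striatal phosphatase inhibitor, was at 63.9 FPKM, below only withdrawal 6 at 65.2, and control 2 was lowest at 16.5. Among 12 septal and basal forebrain genes, Crhr2, Nkx2-1 and Isl1 were highest in withdrawal 2, Nkx2-1 at 4.39 FPKM against at most 2.09. Nkx2-1 is also on the hypothalamic list and Isl1 on the GABAergic list. Zic1, the most abundant, was at 98.0 FPKM, above control 2 at 1.92 and below all the other libraries, at 113.7 to 162.5. Trpc4 was at 8.92, below only control 2 at 9.07. Lhx8 and Gbx1 had no count in withdrawal 2 but were at most 0.08 and 0.14 FPKM elsewhere. Of 27 hypothalamic genes, 22 were under 1 FPKM in withdrawal 2, but the list was low in every library. It summed to 19.3 FPKM in withdrawal 2 and 7.28 to 26.2 elsewhere. Its 3 genes highest in withdrawal 2 were Nkx2-1, Lmx1a at 3.86 FPKM against at most 3.05, and Fezf1 at 0.39 against at most 0.16. In control 2 and withdrawal 3, which had the lowest choroid plexus sums, Crhr2 was at 0.12 and 0.20 FPKM and Lmx1a at 0 and 0.30. Nkx2-1 was at 0.10 and 0.05 there, and for these genes both libraries were the lowest. Whether choroid plexus content carried these transcripts was not tested. The olfactory bulb list, in which Sp8 was the only member, summed to 28.8 FPKM in withdrawal 2, the highest of the 10 libraries, against 6.31 to 24.8. Of its genes Eomes was at 10.2 FPKM, second to withdrawal 1, Cdhr1 at 5.09, also second to withdrawal 1, and Doc2g highest at 3.07, while Tbx21 and Th were at 0.08 and 0.17. Reticular thalamus genes were highest in withdrawal 2 for 6 of 8, but Gad1, Gad2, Six3 and Isl1 are shared with the GABAergic list, and Pvalb was at 3.65 FPKM, near the bottom of the range.

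**Figure D4:**
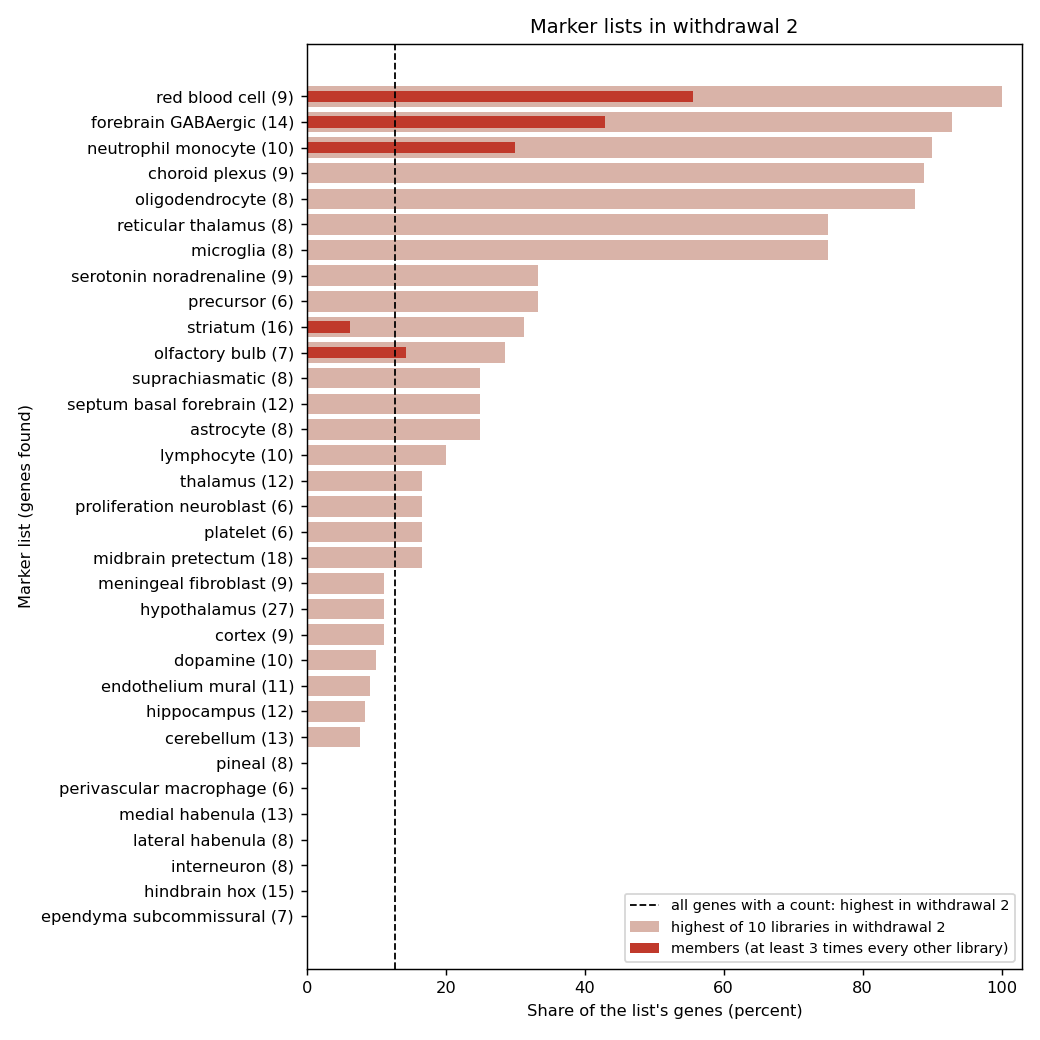
Share of each marker list's genes (percent) that were highest of 10 libraries in withdrawal 2, light bars, and that were members, dark bars, with the number of genes found in brackets and the 12.7% of all genes with a count as a dashed line. Red cell, GABAergic and neutrophil lists have both the longest light bars and the largest shares of members.

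Member counts were uneven in depth. Of the 56 members, 30 had at least 100 counts in withdrawal 2, 9 had 10 to 99 and 17 had fewer than 10. Those under 10 included 7 microRNA genes with 2 to 6 counts, Ighd1-1 with 1 count and Trbj1-6 with 2. The single count of Ighd1-1 was worth 2.14 FPKM, since FPKM divides by a very short gene length. Of the 11 members listed at 0 in all other 9 libraries, 10 had fewer than 10 counts, and Gm47153 had 12. A count of 0 in another library allows up to 3 counts there, so a member with 1 to 3 counts did not differ from it detectably at this depth. Just inside the threshold lay Ndnf, Alas2 and Dlx5, at 3.04, 3.06 and 3.09 times the next library, and just outside lay 2700033N17Rik, Myo5b, Gpc3, Lzts1 and Isl1, at 2.99, 2.85, 2.77, 2.64 and 2.60. Applied to any other library, the same rule chose 14 to 143 genes, with 143 for control 2 and 41 for withdrawal 3.

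Whether the members differ between withdrawal and control was asked without the library that chose them, in 4 controls and 5 withdrawal libraries, by edgeR's quasi-likelihood test. Of 18190 genes tested, 849 were called at an adjusted p under 0.05 (4.67%), 301 of them higher (1.65%) and 548 lower (3.01%). Of the 56 members 30 were tested and 26 were not, because they had a mean under 10 counts over the 9 libraries. Only Ndnf was called, with a log2 difference of -1.75, lower in withdrawal (SE 0.294), at an edgeR adjusted p of 0.0194. Each SE given with a fitted change is approximate: the size of the change over the square root of the test's F statistic. All 5 withdrawal libraries were below all 4 controls for Ndnf and Igfbpl1 (6.23% of genes), and all 5 were above for Alas2 (10.4% of genes). The call of Ndnf was lost without control 3 or withdrawal 1, 3 or 5, and its adjusted p ran from 0.00871 to 0.0702 when 1 library was left out. Without control 2 as well, edgeR called 5 of the 30 tested members (11.8% of all genes, 6.6% lower), each lower in withdrawal, namely Ndnf, Igfbpl1, Ano2, Arhgap25 and Npffr1. DESeq2 called 7 on the 9 libraries (13.8% of all genes), among them Ndnf, Alas2, Hbb-bs and Dlx2. With all 10 libraries edgeR called 26 of 18246 genes (0.142%) and 0 of 32 tested members, 5 of which had an unadjusted p under 0.05. The rule sets an upper bound on each of these 9 libraries, so the direction was not fixed by it.

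**Figure D5:**
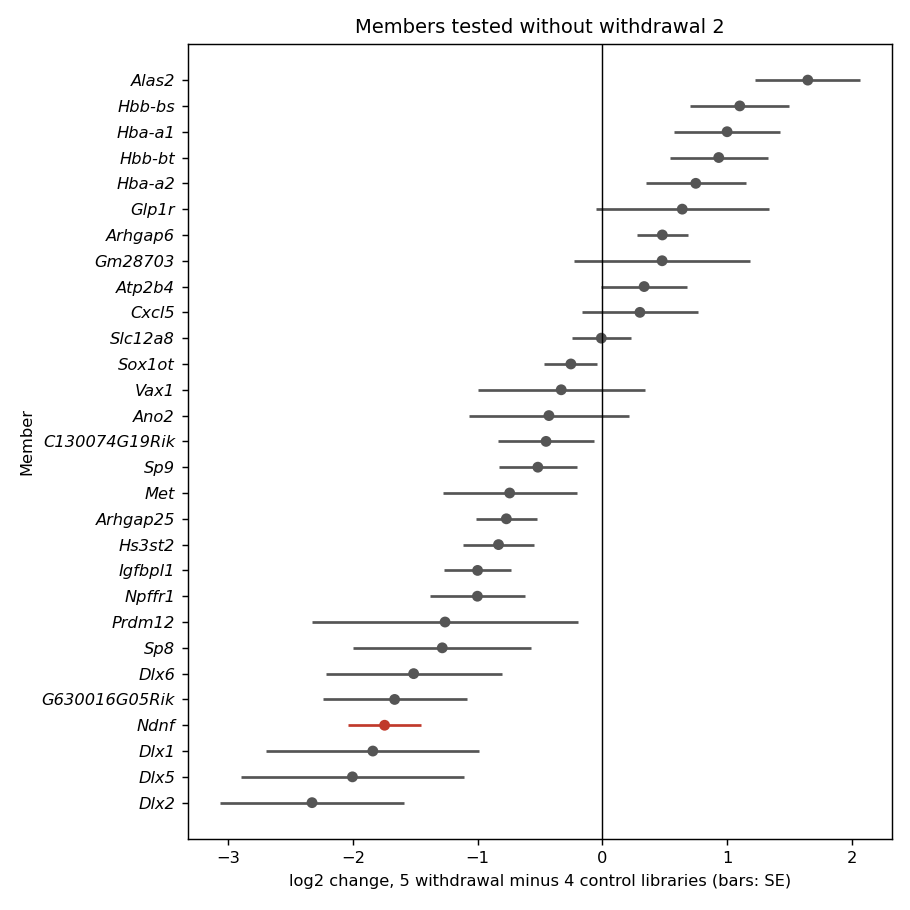
Log2 change (withdrawal minus control) of 29 of the 30 members tested in the 9 libraries without withdrawal 2. Bars are an approximate standard error worked back from the change and the test's F statistic. Ndnf, at -1.75, is the only one called, and globins and Alas2 lie to the right of 0 while the Dlx genes lie to the left.

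Without withdrawal 2 the 5 red cell members had positive changes and the 6 GABAergic factors negative ones, and none of them passed the edgeR test. Other marker lists moved in the same comparison. The median log2 change was -2.15 for the hippocampal list (0 of 12 positive, 5 called lower), -3.28 for the cortical list (3 of 9 called lower) and -1.83 for the interneuron list. It was 0.53 for the medial habenula list (13 of 13 positive, none called) and 1.09 for the thalamic list (12 of 12 positive, none called). Control 2, which stood apart in habenula and hippocampal markers, is among the 4 controls. The hippocampal sum was 109 to 567 FPKM in the 4 controls and 68.0 to 86.6 in the 5 withdrawal libraries, so it was not control 2 alone that was higher. Without control 2 the median log2 change of the tested members was -0.78, against -0.48 with it. The part of these shifts in the members' changes was not tested. Hbb-bs had a mean of 35.0 ± 15.9 FPKM in controls (SD, n = 4) and 78.4 ± 38.5 in withdrawal (SD, n = 5), and the fitted change was 1.10 in log2 units, SE 0.398, with adjusted p = 0.132 by edgeR. Alas2 had 0.562 ± 0.137 and 1.87 ± 1.11, and the fitted change was 1.65 in log2 units, SE 0.422, with adjusted p = 0.0580 by edgeR. For the 7 tested red cell genes the median log2 change was 0.93, with 6 positive. Dlx2 had 1.07 ± 0.410 and 0.236 ± 0.222, and the fitted change was -2.33 in log2 units, SE 0.740, with adjusted p = 0.0984 by edgeR. Dlx1 was at -1.84, Dlx5 at -2.0, Dlx6 at -1.51 and Sp8 at -1.28, with edgeR adjusted p of 0.218, 0.201, 0.219 and 0.294. Over the GABAergic list the median was -1.50, and Lhx6, which is no member, was called lower. Over the 30 tested members the median log2 change was -0.48, against -0.001 over all genes, with 10 positive and 20 negative.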

How the data were processed

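TRIzol RNA was used, and libraries were made with a VAHTS Universal V8 kit (source: per the labels). The submitters' processing notes list HISAT2 2.2.1, HTSeq 0.6.1, cutadapt 1.9.1 and the build mm39. The annotation release, strand setting and gene lengths are not given in the sources used here, so overlapping and antisense genes could not be told apart. The deposited matrix holds the authors' raw counts and FPKM, as named per the file headers. GENCODE M21 named 52073 of 56691 identifiers. Members were chosen on deposited FPKM. The deposited counts of 4 controls and 5 withdrawal libraries, without withdrawal 2, were tested with edgeR 4.0.16 (quasi-likelihood, TMM, 2-sided, Benjamini-Hochberg over all genes, threshold 0.05, mean of at least 10 counts) in R 4.3.3. DESeq2 1.42.0 and limma 3.58.1 on log2(FPKM + 1) or log2(FPKM + 0.1), other filters, all 10 libraries, a replicate block and each library left out were alternatives. The fit was tested on simulated counts. Of 200 changed genes among 18190, it recovered 14.9%, 61.2% and 100% of those changed 1.5-, 2- and 4-fold. The changed genes were drawn only from genes well above the minimum of 10 counts. Their simulated spread followed a trend smoothed over expression level. Recovery was therefore not measured for members with lower counts or a wider spread.

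The 38 marker lists, the members and the tests were chosen with earlier results of these data known. The named members are those with a gene name that are in a marker list, the 12 highest in FPKM in withdrawal 2, the 12 with the largest ratio among those with at least 100 counts there, and those called. From other lists up to 4 genes with the highest FPKM were to be named, and other genes, including defining markers at low level, were named after their values were seen. No molecular identifiers mark PCR copies, so counting intervals are a lower bound on the error. Replicate numbers only name mice. A few named genes are not reported here.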

Additional observations from a re-analysis of the deposited data

Results flagged for a closer look

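Of 64 sets of values examined for a library far from its group, 5 had one, and chance alone marks about 1 in 20 such sets. The calcium pump gene Atp2b4 was at 1.55 FPKM in control 2, against 6.33 to 6.90 in the other 3 controls. Among the 5 withdrawal libraries without withdrawal 2, the GABAergic factor gene Sp9 was at 1.07 FPKM in withdrawal 1, against 0.45 to 0.62 in the others. In the same 5 libraries Arhgap6, a GTPase activator, was at 0.40 FPKM in withdrawal 5, against 0.56 to 0.58. The summed medial habenula markers were at 138 FPKM in withdrawal 2, against 713 to 803 in the other 5 withdrawal libraries. Calb2 gave 125 of those 138 FPKM, and the other 12 markers summed to 12.7 in withdrawal 2 and 313 to 486 in the other 5, a sum chosen after the values were seen. The summed hippocampal markers were at 185 FPKM in withdrawal 2, against 68.0 to 86.6 in those 5.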

How the results depend on the processing

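The number of members followed the rule's settings. It was 118 at a ratio of 2, 25 at a ratio of 5, 100 at a minimum of 0.5 FPKM, 21 on FPKM + 1 and 30 with at least 100 counts, and 57 to 69 when 1 other library was left out. The same rule gave 35, 143, 20 and 17 genes for controls 1 to 4 and 20, 24, 14 and 21 for withdrawal 1, 4, 5 and 6. In the comparison without withdrawal 2, the 849 genes called became 26 with all 10 libraries and 2518 with DESeq2, and ran from 86 to 2147 when 1 library was left out (86 without control 3, 117, 125, 302, 109 and 453 without withdrawal 1, 3, 4, 5 and 6, and 2147 without control 2). Members called were 0 of 32 with all 10 libraries (5 at an unadjusted p under 0.05), 7 with DESeq2, 2 with limma on log2(FPKM + 1), and 0 to 5 when 1 library was left out. The median member change was 0.89 with all 10 libraries. There, Dlx1, Dlx6, Sp8 and Npffr1 turned positive, at 0.14, 0.51, 0.98 and 0.72. The rule chose the members on withdrawal 2, which enters that fit.

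Replicate numbers 1, 3 and 4 did not pair the libraries (correlations of deviations -0.14, -0.15 and 0.059). With the replicate block 0 members were called (9 at an unadjusted p under 0.05), beside 1003 genes in all, and Ndnf had an adjusted p of 0.0744 by edgeR.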
